A study of Mus musculus with 2 samples.

Results

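The genes described here are the replication-dependent histone genes of the mouse, taken as every feature of the count matrices whose symbol begins with Hist1h, Hist2h, Hist3h or Hist4h. There were 67 of them among 32285 features. They comprised 6 linker histone H1 genes, 18 H2A genes, 18 H2B genes, 12 H3 genes and 13 H4 genes, of which 54 lie on chromosome 13, 10 on chromosome 3, 2 on chromosome 11 and 1 on chromosome 6. Over the kept cells, 65 had at least 1 UMI (unique molecular identifier, 1 per captured RNA molecule), 61 had at least 100 and 35 had at least 1000, while Hist1h2ba and Hist1h2aa had 0.

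The series is droplet single-cell RNA sequencing of tumours grown from MC38, a mouse colon adenocarcinoma cell line. It holds 2 libraries, 1 of a tumour sample with the genotype label Mbtps1 WT, called control here, and 1 with the label Mbtps1 KD, called knockdown here, which the series text describes as a knockout. Mbtps1 encodes a protease that cuts membrane-bound transcription factors in the Golgi. The sources used here do not give the age of the tumours, the host strain, the number of animals, the agent behind the knockdown or whether the line is a clone. No other treatment is named for either group.

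Histones are the proteins around which DNA is wound: H2A, H2B, H3 and H4 form the core of the nucleosome and H1 binds the DNA between cores. The replication-dependent genes are expressed mainly while DNA is copied, so that new DNA is packaged as it is made, and their RNAs classically end in a conserved stem-loop rather than a poly(A) tail. The stem-loop binding protein Slbp and the U7 small nuclear ribonucleoprotein act at that end. The kit used here captures RNA by poly(A), so a UMI of such a gene is a molecule that was primed there and levels of different members are not ranked against each other as amounts of RNA.

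The stem-loop is shown because it defines how these RNAs end. In the GENCODE vM21 gene models on GRCm38, 46 of the 67 members held it. The letters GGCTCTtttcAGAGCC occurred in 26 members of the H1, H2A, H2B and H3 families, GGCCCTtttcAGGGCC in 7 H4 genes, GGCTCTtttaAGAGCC in 6 members, and 5 further variants in 1 or 2 members each. The 5 examples below are given 5′ to 3′ with both arms of the stem in capitals and the loop in lower case. They lie at chr13:21833029-21833044 (minus strand), chr13:23581950-23581965 (plus), chr13:23745047-23745062 (minus), chr13:22040966-22040981 (minus) and chr3:96220418-96220433 (minus), each in the 3′ untranslated part of a protein-coding gene.
Hist1h2ap: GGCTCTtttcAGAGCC
Hist1h4d: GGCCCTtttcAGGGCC
Hist1h3c: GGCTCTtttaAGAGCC
Hist1h4i: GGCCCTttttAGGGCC
Hist2h2ac: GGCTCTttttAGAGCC

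The promoter windows are shown for 4 members whose values are followed below, because the families differed in the motifs they held. RefSeq windows of 300 bases, 250 before and 50 after the annotated start on GRCm38.p6, were found for 62 of the 67 members. The CCAAT motif, on either strand, was in the windows of all 6 H1, 18 H2A, 16 H2B and 10 H3 genes found but in 3 of 12 H4 genes, against 37.4% of all 32851 RefSeq promoters. The TATAAA motif was in 35 of 62 windows against 13.6% of all promoters. The octamer ATTTGCAT was in 14 windows, 7 of H2A and 7 of H2B genes, against 1.74% of all promoters. Some H2A and H2B genes are divergent neighbours whose windows overlap, as do those of Hist1h2ae and Hist1h2bg, so these counts hold shared letters. A match describes the letters only. The windows lie at chr13:21833426-21833725, chr13:23571171-23571470, chr13:21780576-21780875 and chr13:22041313-22041612, all on the minus strand, and matches to the 3 motifs on either strand are in capitals.
Hist1h2ap: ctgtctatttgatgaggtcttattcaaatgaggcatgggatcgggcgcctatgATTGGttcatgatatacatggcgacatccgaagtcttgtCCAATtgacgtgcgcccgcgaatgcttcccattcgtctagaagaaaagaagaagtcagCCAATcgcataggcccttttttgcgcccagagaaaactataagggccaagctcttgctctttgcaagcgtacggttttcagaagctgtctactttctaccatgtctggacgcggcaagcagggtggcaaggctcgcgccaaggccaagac
Hist1h2ae: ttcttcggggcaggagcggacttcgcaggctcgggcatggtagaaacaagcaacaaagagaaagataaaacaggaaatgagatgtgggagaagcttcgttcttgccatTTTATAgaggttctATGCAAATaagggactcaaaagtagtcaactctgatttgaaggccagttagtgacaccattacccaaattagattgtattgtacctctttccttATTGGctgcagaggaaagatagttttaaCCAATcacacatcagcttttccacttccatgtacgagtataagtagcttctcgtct
Hist1h1b: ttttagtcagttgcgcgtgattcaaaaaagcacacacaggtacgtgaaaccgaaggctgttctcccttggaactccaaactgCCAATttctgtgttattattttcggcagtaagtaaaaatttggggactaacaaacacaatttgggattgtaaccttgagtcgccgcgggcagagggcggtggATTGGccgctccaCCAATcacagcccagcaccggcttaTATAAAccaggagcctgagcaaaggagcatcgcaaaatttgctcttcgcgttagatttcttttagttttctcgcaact
Hist1h4i: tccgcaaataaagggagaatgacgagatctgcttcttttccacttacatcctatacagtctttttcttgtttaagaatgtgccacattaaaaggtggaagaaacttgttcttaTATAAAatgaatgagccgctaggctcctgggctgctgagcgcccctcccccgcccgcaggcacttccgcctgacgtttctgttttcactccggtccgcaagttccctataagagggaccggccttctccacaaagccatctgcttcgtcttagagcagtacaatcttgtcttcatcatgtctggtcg

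The control library gave 11018 kept cells with a median of 8240.5 UMIs and the knockdown library 16133 with a median of 4801, and 47 cell barcodes occurred in both. Clusters built without the histone genes gave 4133 and 6279 tumour cells, 4775 and 5110 macrophages or monocytes, and 533 and 1688 T cells, while 405 and 1676 cells stayed unnamed, 1936 of them in a shallow cluster with low Xist. All 12 tumour markers, 13 macrophage markers and 11 T cell markers were detected in their own class in both libraries, and Xist stood at 3.60 and 3.46 CPM (UMIs of a gene per 1000000 UMIs of all genes in the summed class) in tumour cells against 578 and 519 in macrophages. The classes were named by these markers, with Xist limited to 20 CPM for tumour, so these values are no independent check of the classes. Mbtps1 was at 29.4 CPM in control and 12.6 in knockdown tumour cells, and at 19.4 and 19.2 CPM in macrophages. With 1 library per group there is no replicate check of any difference and no test was made. All 95% intervals cover counting error only.

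Cells were called cycling with at least 2 UMIs of Mki67 and Top2a together, genes of dividing cells, and non-cycling with 0. Cells with 1 such UMI entered neither group. Cycling cells made up 1493 of 4133 control tumour cells (36.1%) and 3097 of 6279 knockdown tumour cells (49.3%). There were 580 and 601 cycling macrophages and 51 and 142 cycling T cells.

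Histone RNA was higher in cycling cells of every class compared. In tumour cells of the control library the 67 genes together stood at 1546 CPM in cycling and 387 CPM in non-cycling cells, a ratio of 4.00 (95% interval 3.93 to 4.07). In knockdown tumour cells they stood at 1345 and 336 CPM, a ratio of 4.01 (3.92 to 4.10). Macrophages had lower non-cycling and higher cycling levels than tumour cells in control, at 337 and 2467 CPM, a ratio of 7.32 (7.12 to 7.53). The knockdown macrophages were at 344 and 1840 CPM, a ratio of 5.35 (5.16 to 5.55). T cells went from 292 to 2686 CPM in control and from 430 to 2531 CPM in knockdown. NK cells, with 41 and 47 cycling cells, went from 321 to 3028 CPM in control and from 378 to 1881 CPM in knockdown. The plot of summed levels by class sets these beside the empty droplets, whose free RNA held 827 and 824 histone CPM. All 8 non-cycling levels of these 4 classes were under the empty-droplet level. The 13 macrophage markers, all detected, summed to 325 CPM in cycling and 308 CPM in non-cycling control tumour cells, against 12816 CPM in empty droplets. In T cells they summed to 949 CPM (10 of 13 detected) in cycling and 1288 CPM (13 of 13) in non-cycling cells of control, and to 1150 and 1714 CPM (13 of 13 in both) in knockdown, where empty droplets held 8259 CPM. They were so higher in knockdown beside the higher histone level of non-cycling T cells. The part of such RNA in the histone levels was not tested.

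**Figure D1:**
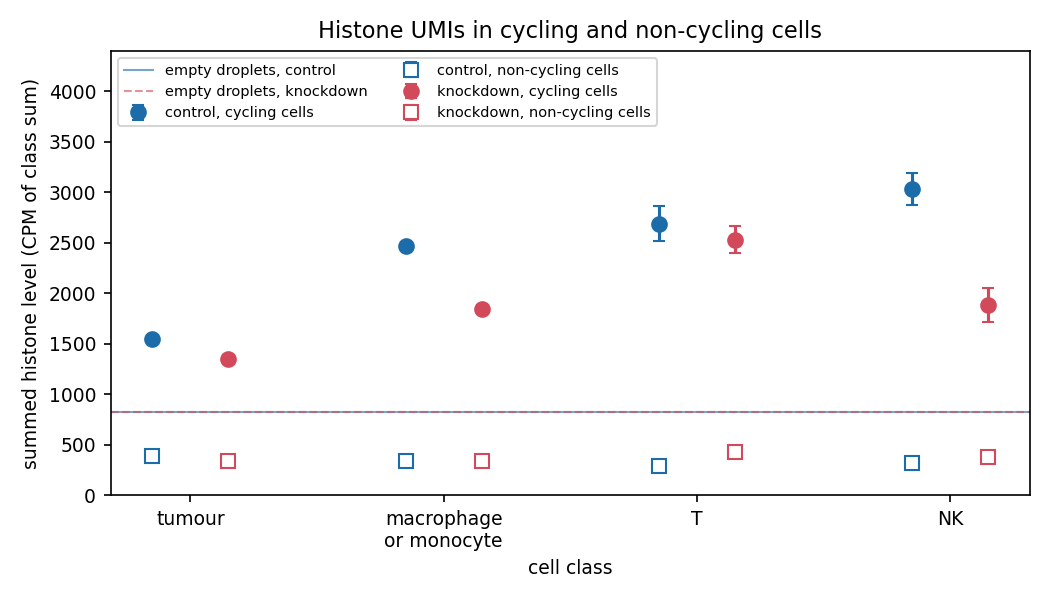
Summed level of the 67 histone genes (CPM of the class sum, vertical axis) in cycling (filled circles) and non-cycling cells (open squares) of 4 cell classes (horizontal axis), control in blue and knockdown in red, with 95% Poisson intervals and lines for empty droplets. Cycling cells lie between 1345 and 3028 CPM, and non-cycling cells between 292 and 430 CPM, below the empty droplets at 827 and 824 CPM.

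Single cells differed widely in histone UMIs. After each cell was thinned to 2000 UMIs and cycling was called again, 155 of 422 cycling control tumour cells had at least 5 histone UMIs (36.7%, 95% Clopper-Pearson interval 32.1 to 41.5%) against 123 of 3181 others with 0 marker UMIs (3.87%, 3.22 to 4.60%). Without thinning, the shares were 92.3% of the 1493 cycling and 55.1% of the 2051 non-cycling cells called at full depth. These are other sets of cells, with median depths of 30637 and 18164 UMIs. In control macrophages the thinned shares were 52.0% of 246 and 2.23% of 3945 cells, and without thinning 73.3% and 11%. The most histone UMIs in a thinned cell was 21 for cycling and 23 for non-cycling tumour cells of the control library. After thinning 3181 of these cells had 0 marker UMIs, against 2051 at full depth, so some had marker UMIs before thinning. The maximum of 23 thus does not show such a level in a cell without marker UMIs at full depth. Thinning left out 40 control tumour cells and 218 control macrophages that were shallower.

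Counted gene by gene, 50 of the 58 members with at least 20 UMIs were at least 2-fold higher in cycling than non-cycling control tumour cells, against 6.23% of all 15130 genes tested in that way. Of those 58, 11 had fewer than 20 UMIs in non-cycling cells and passed through the cycling cells, and 9 members fell under the minimum. The median ratio was 5.87, against 0.998 over all genes. In knockdown tumour cells 47 of 58 were at least 2-fold higher (background 5.84%), in control macrophages 52 of 60 (6.95%), in knockdown macrophages 50 of 56 (6.66%), in control T cells 12 of 14 (6.71%) and in knockdown T cells 24 of 27 (6.45%). In NK cells the counts were 13 of 15 (6.51%) and 10 of 12 (5.64%). Each count holds members that passed only through the cycling cells, where they were high, and had fewer than 20 UMIs in non-cycling cells. These were 13 of 58 in knockdown tumour cells, 20 of 60 and 18 of 56 in macrophages, 10 of 14 and 11 of 27 in T cells, and 10 of 15 and 8 of 12 in NK cells, so the counts are given as a description. Members at least 2-fold lower in cycling cells numbered 1 in control tumour cells (background 3.36%), 1 in knockdown tumour cells (2.02%), 0 in control macrophages (4.27%) and 1 in knockdown macrophages (4.06%). There were 0 in T cells (13% and 7.90%) and 0 in NK cells (7.49% and 8.53%).

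Among the H1 genes, Hist1h1b (histone H1.5) stood at 150.3 CPM in cycling and 3.30 CPM in non-cycling control tumour cells, a ratio of 45.6 (38.3 to 54.8). It was at 212 and 3.71 CPM in control macrophages and at 222 and 3.62 CPM in control T cells, and was so among the 3 highest ratios of members with at least 50 UMIs in all 3 classes. In the knockdown library the ratios of Hist1h1b were 25 in tumour cells, 13 in macrophages and 8.32 in T cells. Hist1h1e (histone H1.4) was at 135 and 22.7 CPM in control tumour cells and at 173 and 21.3 CPM in control macrophages. Hist1h1c (histone H1.2) differed from both: it was at 36.3 CPM in cycling and 40.8 CPM in non-cycling control tumour cells, and its ratio of 0.890 (0.831 to 0.954) was 1.39 (1.26 to 1.54) in the knockdown library. In macrophages Hist1h1c was 1.52-fold higher in cycling cells in control and 1.51-fold in knockdown. Linker histone genes thus ranged from near equal levels in both states to a 45.6-fold difference within the same tumour cells.

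The H2A genes had the highest family ratio in tumour cells, at 661 CPM in cycling and 55.4 CPM in non-cycling cells of the control library, a ratio of 11.9 (11.4 to 12.5). Hist1h2ap was at 297 CPM in cycling and 8.25 CPM in non-cycling control tumour cells, at 453 and 12.9 CPM in macrophages and at 454 and 15.4 CPM in T cells. With 10% of UMIs subtracted as free RNA, its ratio went from 35.0 to 449 in macrophages and from 29.5 to 128 in T cells, so the size of a ratio over so low a non-cycling level depends on that choice. Hist1h2ae was at 191 and 11 CPM in control tumour cells and at 411 and 9.64 CPM in macrophages, where its ratio of 42.6 was among the 3 highest. Hist1h2af had the highest ratio in tumour cells, 57.3 (24.3 to 177), from 357 and 5 UMIs, and in macrophages, 143 (54.8 to 532), from 155 and 4 UMIs. Hist1h2ao had 50 and 1 UMIs in tumour cells, so its ratio of 40.1 has an interval from 6.88 to 1620. Hist1h2ab was at 48.5 and 2.52 CPM and Hist2h2ac at 38.5 and 3.42 CPM in control tumour cells. Against these, Hist3h2a was lower in cycling cells, at 11.7 and 18.1 CPM in control tumour cells (ratio 0.646, 0.577 to 0.723) and at 16.6 and 25.9 CPM in control macrophages (0.643, 0.513 to 0.799).

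The H2B family as a sum did not differ by cycling state in control tumour cells, at 164 and 163 CPM (ratio 1.01, 0.975 to 1.04). This sum combines Hist1h2bc, which was at 52.2 CPM in cycling and 141 CPM in non-cycling cells (ratio 0.370, 0.352 to 0.388), with members that were higher in cycling cells, such as Hist1h2bj at 38.5 and 7.37 CPM (ratio 5.22). In knockdown tumour cells the H2B family ratio was 1.40 (1.34 to 1.46). It was 2.62 and 2.84 in control and knockdown macrophages and 4.74 and 4.73 in T cells. Of the single members, Hist1h2bc had the lowest ratio in control tumour cells. The 9 fibroblast markers, all detected, moved the same way in these cells, at 1629 CPM in cycling and 3633 CPM in non-cycling control cells and at 1119 and 2278 CPM in knockdown, beside 2225 and 1408 CPM in empty droplets. Their part in the Hist1h2bc difference was not tested. In control macrophages its levels were near equal, at 79.4 and 79.7 CPM, beside 80.3 CPM in empty droplets. Over all cells of a class, Hist1h2bc was at 179 CPM in control fibroblasts and 176 CPM in control endothelial cells, both above the empty droplets, and at 41.7 CPM in T cells, below them.

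The H3 genes together stood at 119 and 18.1 CPM in control tumour cells (ratio 6.58, 6.08 to 7.13) and at 240 and 21.7 CPM in control macrophages (11.1, 9.95 to 12.3). Hist1h3c was at 36.2 and 5.24 CPM in control tumour cells and at 61.5 and 2.09 CPM in control macrophages. Hist2h3c1 had 59 and 66 UMIs in control tumour cells and a ratio of 0.717 (0.496 to 1.03), and 1.40 (0.782 to 2.43) in macrophages, intervals that both include 1. Its near copy Hist2h3c2 had a ratio of 0.880 (0.631 to 1.23) in tumour cells. The H4 genes together stood at 257 and 81.3 CPM in control tumour cells, a ratio of 3.17 (3.04 to 3.29). Hist1h4i was at 99.3 and 42.4 CPM there (ratio 2.34) and Hist1h4d at 97.1 and 18.8 CPM (5.17). Many members of a family are near-identical copies, and no source used here states how reads shared between them were assigned, so the split of UMIs between single members of a family is uncertain.

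**Figure D2:**
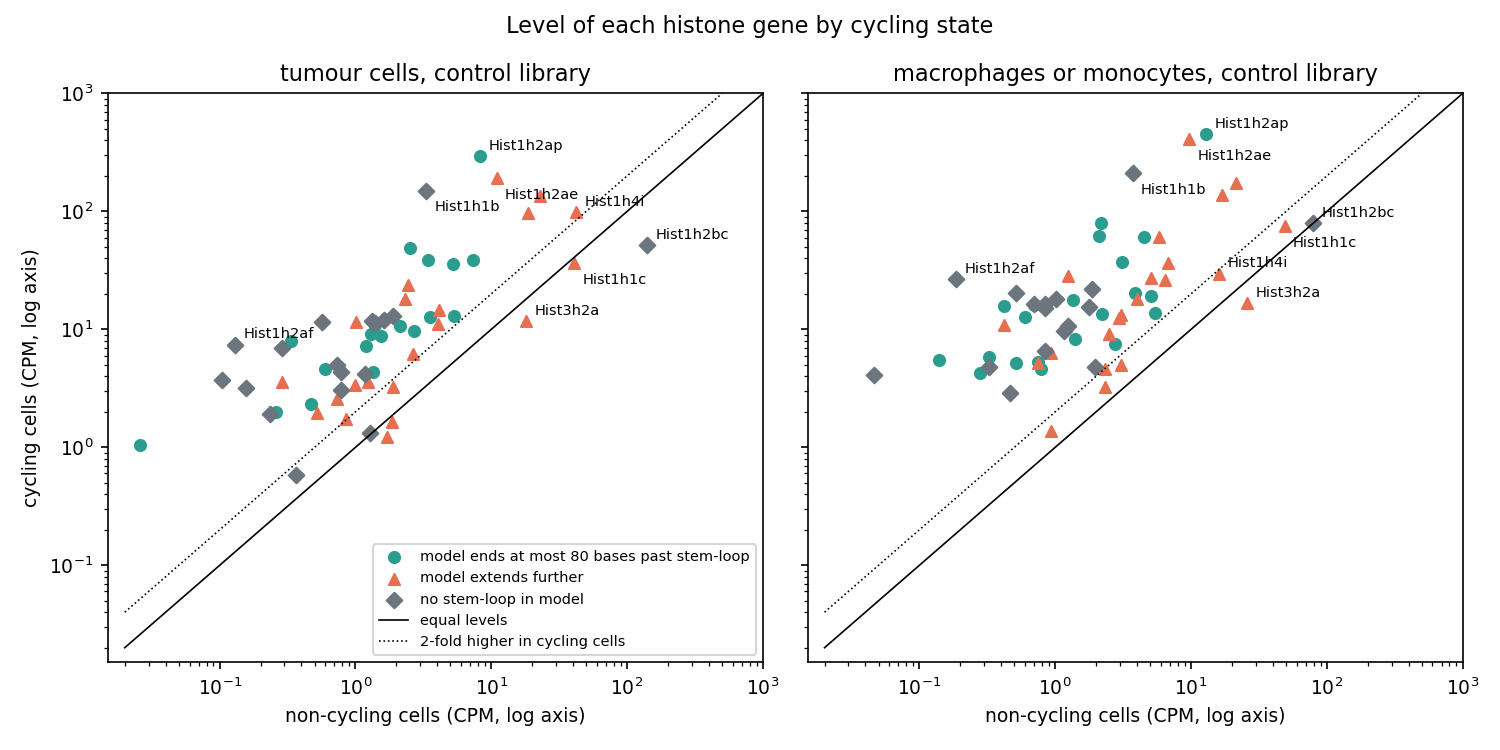
Each point is a histone gene with at least 20 UMIs in tumour cells (left) or macrophages or monocytes (right) of the control library, by its CPM in non-cycling (horizontal) and cycling cells (vertical), both on log axes, with colour and shape for the annotated end of its gene model. Most points lie above the dotted line of a 2-fold difference, while Hist1h2bc at 141 and 52.2 CPM in tumour cells and Hist3h2a at 18.1 and 11.7 CPM lie below the line of equal levels.

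Members were also grouped by the annotated end of the gene model. In 23 members the model ended at most 80 bases past the stem-loop, and 0 of them held the AATAAA polyadenylation hexamer after it. In 23 it extended further, and 14 of these held AATAAA. In the other 21 no stem-loop lay in the model, and 4 of these held AATAAA. Several of these models are short, such as Hist1h2ak at 393 bases and Hist1h2af at 399, and may lack the 3′ untranslated part. A stem-loop missing from a model thus does not show that the RNA lacks one. Summed in control tumour cells, the members ending near the stem-loop stood at 563 CPM in cycling and 49.1 CPM in non-cycling cells, a ratio of 11.5 (10.9 to 12). Those extending further were at 680 and 180 CPM, a ratio of 3.77 (3.67 to 3.87). Those with no stem-loop in the model were at 304 and 157 CPM, a ratio of 1.93 (1.88 to 1.99). Hist1h2bc alone, whose model holds no stem-loop, made up 141 of those 157 CPM. The median ratios of single members were 6.90, 3.40 and 7.76, so the medians did not follow the order of the sums. All 19 members of the short group that passed the UMI minimum were at least 2.46-fold higher in cycling cells. The 8 below 2-fold were in the other groups, 5 and 3. Over all genes tested in control tumour cells, 6.23% were at least 2-fold higher. Of the 58 members that passed, 11 did so only through the cycling cells, where they were high. Hist1h2ao of the short group was among them. This split between the groups is thus given as a description. The short group held 36.4% of histone UMIs in cycling and 12.7% in non-cycling control tumour cells. In control macrophages the summed ratios were 16.8, 5.93 and 4.97, in the same order, and in control T cells 14.8, 7.04 and 9.24. In knockdown tumour cells they were 6.40, 3.85 and 2.83. The limit of 80 bases was chosen after the values were seen, and the members were not assigned to ends by their reads, which were not used here.

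Histone levels were also set against the make-up of cell-cycle RNA, from an S list (41 genes expressed around DNA replication) and a mitosis list (42 genes). For cells with at least 10 UMIs over both lists, the share of UMIs from the S list was taken. In control tumour cells the summed histone level was 319 CPM in cells with a share of 0.75 to 1, 685 CPM at 0.5 to 0.75, 1482 CPM at 0.25 to 0.5 and 1383 CPM below 0.25. Macrophages followed with 297, 865, 2533 and 2071 CPM, and T cells with 565, 1096, 2882 and 2034 CPM, where the range of 0.75 to 1 held 11 cells. The range of 0.25 to 0.5 was the highest of the 4 in all 3 classes and both libraries. The ranges are of a share and not of a level: 20.8% of the control tumour cells at 0.75 to 1 met the cycling call, against 81.9% below 0.25, and in control macrophages 18.1% against 69.0%. The lowest histone level thus went with the range in which the fewest cells were called cycling. Hist1h2ap followed the sum, from 14.9 CPM at 0.75 to 1 to 268 CPM at 0.25 to 0.5 in control tumour cells. Hist1h2bc varied less there, between 80.3 and 107 CPM.

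**Figure D3:**
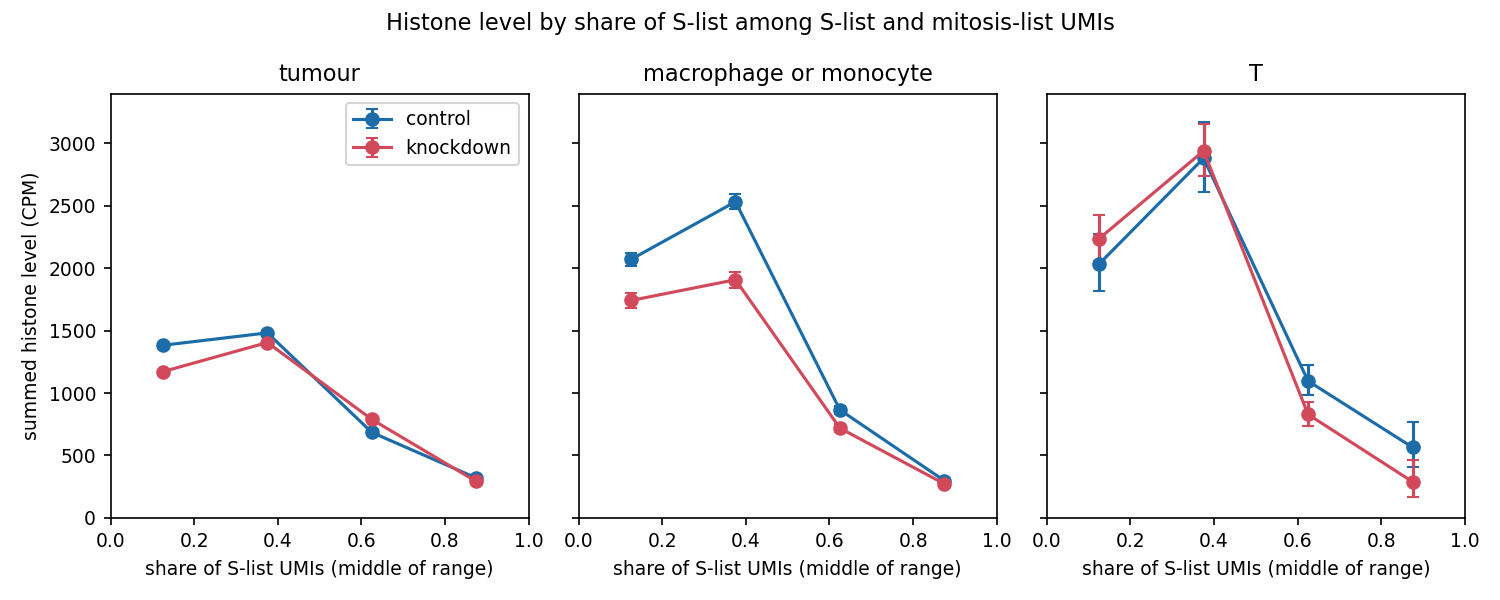
Summed histone level (CPM, vertical axis) by the share of S-list UMIs among S-list and mitosis-list UMIs (middle of each range, horizontal axis) for tumour cells, macrophages or monocytes, and T cells, control in blue and knockdown in red, with 95% Poisson intervals. In each panel both libraries are highest at a share of 0.25 to 0.5 and lowest at 0.75 to 1.

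Other genes of the histone supply moved with the cycle to different extents. In control tumour cells 38 of 41 S-list genes and 42 of 42 mitosis-list genes were at least 2-fold higher in cycling cells, among them the replication clamp Pcna at 174 and 53.1 CPM and the chromatin protein Hmgb2 at 838 and 122 CPM. Of the histone variants expressed outside replication, 3 of the 10 measured were at least 2-fold higher. The centromeric Cenpa was at 136 and 14.1 CPM and H2afz at 1336 and 441 CPM, while H3f3b was at 1831 and 1411 CPM and H3f3a at 838 and 812 CPM. Of 17 genes that process histone RNA, 4 were at least 2-fold higher, and Slbp was at 69.2 and 28.3 CPM while Lsm10, a U7 subunit, was at 42.0 and 54.0 CPM. Of 20 histone chaperones and importers, 8 were at least 2-fold higher, with Asf1b at 23.4 and 1.92 CPM, Nap1l1 at 540 and 341 CPM and Ipo4 at 29.7 and 30.6 CPM. The medians were 5.33 for the S list, 21.4 for mitosis, 1.35 for variants, 1.41 for processing and 1.63 for chaperones, beside 5.87 for the histone members and 0.998 for all genes. In control macrophages the counts were 37 of 41, 41 of 42, 4 of 9, 5 of 16 and 12 of 20. The share over all genes was 6.23% in control tumour cells and 6.95% in control macrophages. Mki67 and Top2a, which made the call, belong to the cycle themselves, so the direction of the S and mitosis lists is no independent finding.

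The summed histone level was lower in cycling tumour cells than in cycling macrophages of the same library, at a ratio of 0.627 in control and 0.731 in knockdown. By family the control ratios were 0.672 for H1, 0.570 for H2A, 0.594 for H2B, 0.496 for H3 and 0.927 for H4. Counts of lower members hold this lower sum. In control, 26 of 62 members were at least 2-fold lower in tumour cells (background 18.2% of 14526 genes) and 1 was at least 2-fold higher (30%), with a median ratio of 0.533 against 1.24 over all genes. The higher member was Hist1h4i, at 99.3 CPM in tumour cells (4773 UMIs) and 29.7 CPM in macrophages (173 UMIs), a ratio of 3.35 (2.88 to 3.92). In knockdown it was at 92.3 and 29.5 CPM, a ratio of 3.13 (2.62 to 3.78), while 20 of 60 members were lower (17.2%) and 2 higher (30.5%). The other higher member was Hist2h3c2, from 60 and 2 UMIs, with an interval from 0.555 to 17.7. Of the 62 members in control, 4 had fewer than 20 UMIs in tumour cells and 5 in macrophages. In knockdown these were 2 and 11 of the 60, so the counts of both libraries are given as a description.

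A few members were nearly absent from tumour cells of both libraries though present in host cells. They were singled out after their values were seen. Hist1h4m had 4 UMIs in cycling control tumour cells (0.0833 CPM) and 80 UMIs in cycling macrophages (13.7 CPM), a ratio of 0.00607 (0.00161 to 0.0162). Hist3h2ba had 3 and 27 UMIs (0.0624 and 4.63 CPM, ratio 0.0135, 0.00262 to 0.0438). Hist1h2bf had 2 and 27 UMIs (0.0416 and 4.63 CPM, ratio 0.00899, 0.00104 to 0.0358). Hist1h2ad had 1 and 32 UMIs (0.0208 and 5.49 CPM, ratio 0.00379, 9.32e-05 to 0.0227). Hist1h3d was less extreme, at 1.96 and 13.2 CPM (ratio 0.148, 0.108 to 0.203). Over all cells, not only cycling ones, Hist1h4m had 7 UMIs in 99644098 UMIs of control tumour cells and 246 in 40337367 UMIs of control host cells, and 7 and 104 in the knockdown library. Over all cells Hist3h2ba had 3 and 112 UMIs in control and 4 and 55 in knockdown, Hist1h2bf 4 and 66 and then 2 and 30, and Hist1h2ad 4 and 46 and then 5 and 35. Both libraries, which share the cell line, thus had these 4 members at 0.0725 CPM or less over all tumour cells. Hist1h2bf, Hist1h2ad and Hist1h3d are consecutive on chromosome 13, starting at positions 23573736, 23574381 and 23575763 on GRCm38, whereas Hist1h4m starts at 21811746 on the same chromosome and Hist3h2ba at 58948920 on chromosome 11. Their neighbours Hist1h2ae and Hist3h2a were well detected in tumour cells, at 191 and 11.7 CPM in the cycling cells of control.

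**Figure D4:**
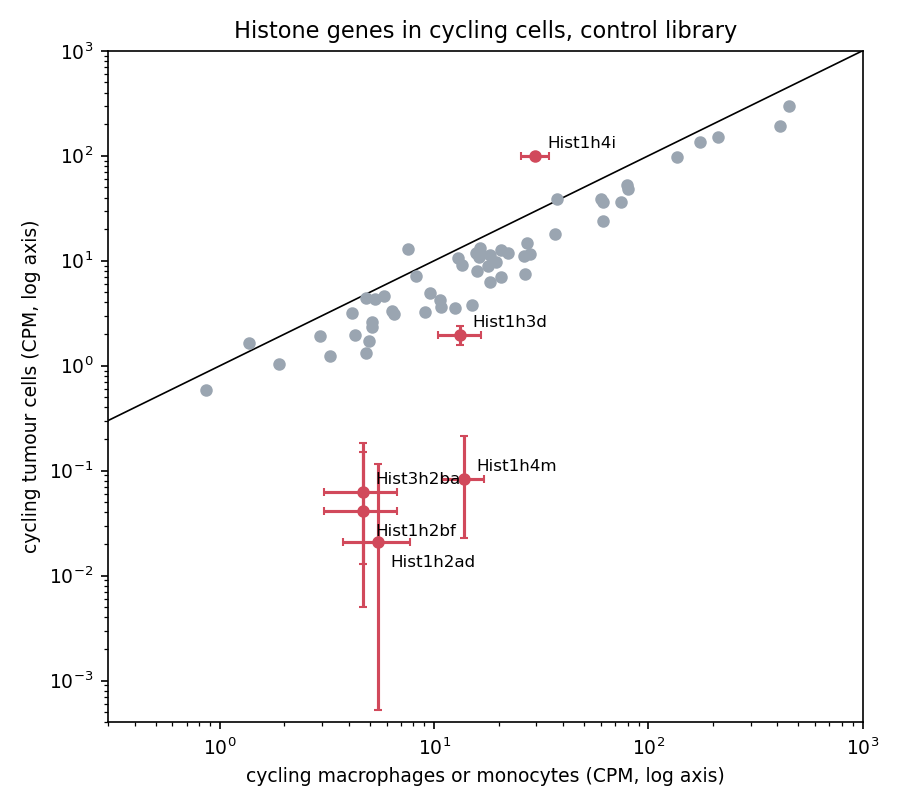
Each point is a histone gene with at least 20 UMIs over both classes in the control library, by its CPM in cycling macrophages or monocytes (horizontal) and cycling tumour cells (vertical), both on log axes, with the line of equal levels. Named genes are in red with 95% Poisson intervals: Hist1h4i lies above the line at 99.3 against 29.7 CPM, and Hist1h4m, Hist3h2ba, Hist1h2bf and Hist1h2ad lie at or below 0.0833 CPM in tumour cells.

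Between the libraries, most histone genes with many UMIs were at near equal levels when cycling tumour cells of all depths were pooled. Hist1h2ap and Hist1h2bc were lower in knockdown. Among cells of 10000 to 20000 UMIs the near equal levels did not hold for each gene. Hist1h1b was at a ratio of 1.69 and Hist2h2ac at 1.70 there, but Hist1h2ab at 1.03. The 67 genes together were at 1546 CPM in control and 1345 CPM in knockdown, a ratio of 0.870 (0.861 to 0.878), and 0.982 once Hist1h2ap was left out. Over all tumour cells, cycling or not, the sum was 947 and 960 CPM, a ratio of 1.01 (1.004 to 1.02), with a larger share of cycling cells in knockdown. In cycling macrophages the sum was at 2467 and 1840 CPM, a ratio of 0.746, or 0.833 without Hist1h2ap, and in cycling T cells at 2686 and 2531 CPM, a ratio of 0.942, or 1.04 without it. Cells of the 2 libraries differed in depth, with medians of 30637 and 18218 UMIs in cycling tumour cells. Among cycling tumour cells of 10000 to 20000 UMIs the ratio of the sum was 1.02, the other way round. When cells were weighted to the same distribution over the S-list share the ratios were 0.862 in tumour cells, 0.763 in macrophages and 0.970 in T cells.

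Of 58 members with at least 20 UMIs in cycling tumour cells, 0 were at least 1.5-fold higher in knockdown (background 12.9% of 15883 genes) and 5 were at least 1.5-fold lower (3.80%), namely Hist1h2ap, Hist1h2bc, Hist2h3c1, Hist2h3c2 and Hist2h2be. The median ratio was 1.01, against 1.05 over all genes. Over all tumour cells 10 members were higher (14.9%) and 3 lower (5.25%), and in cycling macrophages 0 of 59 were higher (7.50%) and 11 lower (3.50%), with a median of 0.809 against 1.03. Of these 59, 10 had fewer than 20 UMIs in knockdown and 2 in control, so the count of lower members is given as a description. In cycling T cells 6 of 25 were higher (19.9%) and 4 lower (9.21%), where 14 of the 25 had fewer than 20 UMIs in control. In non-cycling tumour cells 21 of 53 members were higher (12.5%) and 6 lower (5.97%), beside 31 of 41 S-list and 36 of 41 mitosis-list genes higher, so cells with 0 marker UMIs held more cycle RNA in the shallower knockdown library. The part of that in the histone values was not tested. Of the 53 members, 6 had fewer than 20 UMIs in control and 8 in knockdown. In non-cycling macrophages 16 of 54 members were higher (9.78%) and 7 lower (3.36%), and in non-cycling T cells 9 of 17 were higher (12.1%) and 1 lower (7.99%). Of these 17, 13 had fewer than 20 UMIs in control and passed through the knockdown library, as did 14 of the 54 in macrophages, so nothing is read from these counts against the background. Over all macrophages 0 of 62 were higher (10%) and 8 lower (3.30%), and over all T cells 5 of 36 were higher (11.1%) and 5 lower (5.72%). Fewer than 20 UMIs were found for 1 of the 62 in control and 4 in knockdown, and for 19 of the 36 in control and 7 in knockdown.

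Hist1h2ap, an H2A gene and the member with the most UMIs, was the lowest of all in cycling tumour cells, cycling macrophages and cycling T cells among members with at least 50 UMIs. Its level was 297 CPM in control and 117 CPM in knockdown tumour cells (ratio 0.396, 0.385 to 0.408), 453 and 162 CPM in macrophages (0.358, 0.329 to 0.390) and 454 and 215 CPM in T cells (0.474, 0.371 to 0.605). In each of the 6 tumour clusters the cycling cells of control lay between 261 and 357 CPM and those of knockdown between 91.6 and 140 CPM. The clusters of a library share that library and are not replicates. The share of all genes with such separate ranges is not given here, so nothing is read from them. Over all cells of a class the ratio was 0.230 in NK cells, 0.468 in dendritic cells, 0.429 in endothelial cells, 0.275 in epidermal cells and 0.551 in fibroblasts. Pericytes or smooth muscle cells went the other way, from 5 UMIs in 52 cells to 20 UMIs in 45 cells (ratio 7.04, 2.56 to 24), and neutrophils had 1 and 5 UMIs. Among the pericytes 3 and 10 cells were cycling, and the sum went from 320 to 908 CPM. The part of the cycling share in these all-cell ratios was not tested. The empty droplets moved too, from 119.5 to 73.1 CPM (0.612, 0.495 to 0.754). The lower level was thus seen in tumour cells, where Mbtps1 was lower, in macrophages, where it was at 19.4 and 19.2 CPM, and in free RNA of the same library. A difference of the library and of the genotype cannot be told apart with 1 library per group. In tumour cells of 10000 to 20000 UMIs the ratio was 0.570.

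Hist1h2bc showed the same order in the classes with many UMIs. It was at 52.2 and 26.7 CPM in cycling tumour cells (ratio 0.512, 0.480 to 0.545) and at 79.4 and 49.6 CPM in cycling macrophages (0.625, 0.527 to 0.738). In cycling T cells 16 and 20 UMIs gave 0.722 (0.355 to 1.49), which includes 1. Over all cells it was 0.464 in tumour cells, 0.717 in fibroblasts and 1.01 (0.713 to 1.42) in NK cells, and 0.568 in empty droplets. In macrophages of 10000 to 20000 UMIs the ratio of the cycling cells was 0.934. Hist1h1c was at 36.3 and 29.1 CPM in cycling tumour cells (0.803, 0.751 to 0.858) and at 74.7 and 58.5 CPM in cycling macrophages (0.783, 0.667 to 0.919). Among cells of 10000 to 20000 UMIs its ratios were 0.476 in tumour cells and 1.15 in macrophages, the latter the other way round.

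The other members with many UMIs lay nearer to 1 over cycling tumour cells of all depths. Hist1h1b was at 150.3 and 152 CPM (1.01, 0.977 to 1.04), Hist1h1e at 135 and 136 CPM (1.01, 0.975 to 1.04) and Hist1h4d at 97.1 and 98.8 CPM (1.02, 0.979 to 1.06), intervals that include 1. Hist1h2ae was at 191 and 174 CPM (0.907), Hist1h4i at 99.3 and 92.3 CPM (0.930), Hist1h2ab at 48.5 and 43.2 CPM (0.891), Hist1h2bj at 38.5 and 37.2 CPM (0.968) and Hist2h2ac at 38.5 and 37.5 CPM (0.975). These values depended on cell depth. Among cells of 10000 to 20000 UMIs the ratio was 1.69 for Hist1h1b, 1.70 for Hist2h2ac, 1.29 for Hist1h2ae, 1.03 for Hist1h2ab, 1.08 for Hist1h2bj and 0.974 for Hist1h4d. For 5 of these 6 genes, all but Hist1h1b, that turned the direction. In the same cells Hist1h1e was at 1.25, Hist1h4i at 0.995, Hist1h3c at 1.16 and Hist1h2bc at 0.348. Hist1h3c, an H3 gene, was higher in knockdown, at 36.2 and 48.9 CPM (1.35, 1.27 to 1.43). The highest ratios among members with at least 50 UMIs were 1.44 for Hist1h2ak, 1.43 for Hist1h2bh and 1.36 for Hist1h2af. By family the ratio in cycling tumour cells was 0.997 for H1, 0.707 for H2A, 0.908 for H2B, 1.13 for H3 and 0.977 for H4.

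In cycling macrophages Hist1h1b (0.818, 0.745 to 0.897), Hist1h2ae (0.809, 0.757 to 0.865), Hist1h1e (0.815, 0.735 to 0.903) and Hist1h2ab (0.693, 0.590 to 0.814) were also lower in knockdown, with intervals below 1. Hist1h4m was at 13.7 and 5.56 CPM (0.406, 0.243 to 0.652) and Hist2h3b at 9.60 and 5.81 CPM (0.605, 0.358 to 0.992). The highest were Hist1h2bk at 1.47, Hist1h3g at 1.41 and Hist1h4n at 1.25, all with intervals that include 1. In cycling T cells Hist2h2ac had 9 UMIs in control and 46 in knockdown (27.0 and 79.8 CPM, ratio 2.95, 1.43 to 6.86), and Hist1h2bj had 30 and 32 UMIs (ratio 0.616, 0.362 to 1.05). No difference between the classes was tested.

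**Figure D5:**
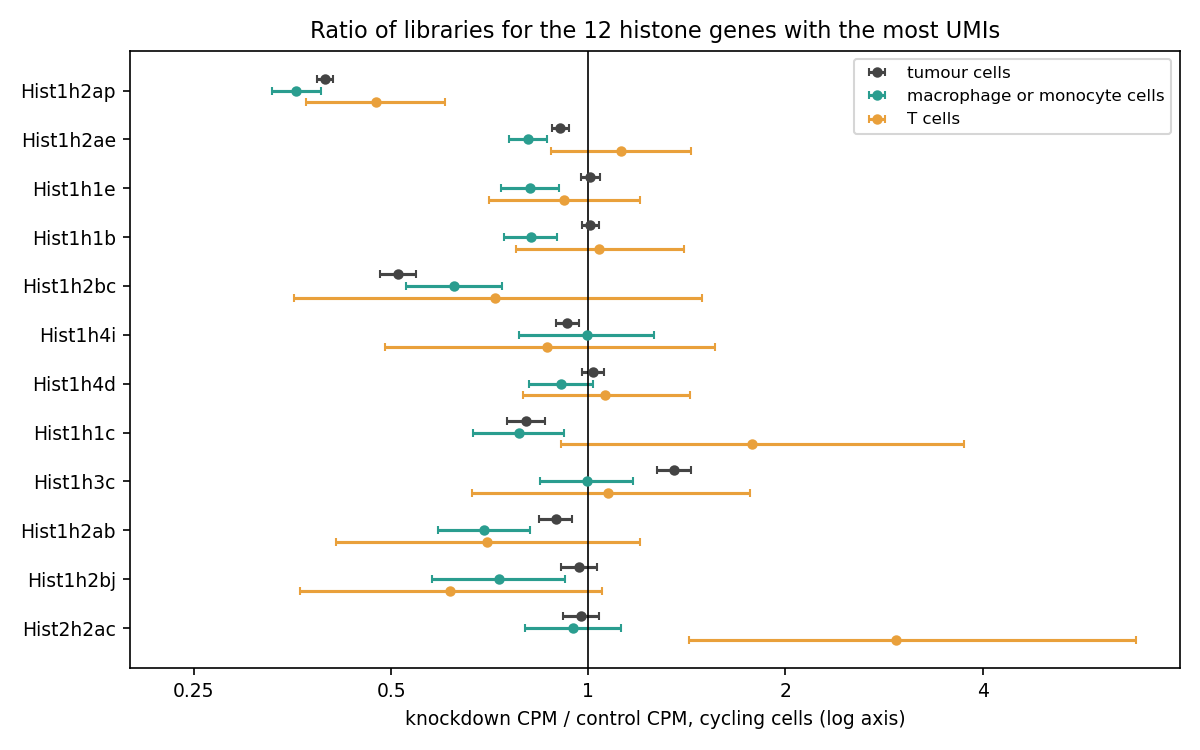
Ratio of knockdown to control CPM (horizontal, log axis) in cycling tumour cells, macrophages or monocytes, and T cells for the 12 histone genes with the most UMIs (vertical), with 95% intervals for counting error. Hist1h2ap lies at 0.396, 0.358 and 0.474 and Hist1h2bc at 0.512, 0.625 and 0.722, while Hist1h1e and Hist1h4d lie between 0.815 and 1.06 in all 3 classes.

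Genes of histone supply and of the cycle were near equal or moved either way between the libraries. Their median ratios in cycling tumour cells were 1.14 for the S list, 0.966 for mitosis, 0.880 for variants, 1.11 for processing and 1.09 for chaperones. In cycling tumour cells Slbp was at 69.2 CPM in control and 82.2 CPM in knockdown (1.19, 1.14 to 1.24), the chaperone Nasp at 177 and 204 CPM (1.15, 1.12 to 1.18) and the replication clamp Pcna at 174 and 180 CPM (1.03, 1.002 to 1.06). The chaperone Dnajc9 was lower, at 69.5 and 49.6 CPM (0.713), as were the variants H2afz at 1336 and 1118 CPM (0.837) and H3f3a at 838 and 661 CPM (0.789). Of 41 S-list genes 0 passed 1.5-fold in either direction, of 42 mitosis genes 0 were higher and 1 lower, of 11 variants 1 was higher and 1 lower, and of 17 processing and 20 chaperone genes 0 passed in either direction. Over all genes 12.9% were higher and 3.80% lower.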

How the data were processed

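The deposited files hold, per the file headers, raw counts of UMIs for 32285 features in every barcode of a library. Cell Ranger 4 is named in the submitters' processing notes. About 6000 cells were loaded and 3000 targeted, per the labels' protocols, fewer than the kept cells. The sources used here do not give the genome build, the annotation or the handling of reads shared between near copies. Positions came from GENCODE vM21, matched for 99.6% of identifiers, and promoters from RefSeq.

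The deposited matrices held 1688458 and 1769772 barcodes and 177399315 and 174190399 UMIs. Kept barcodes had at least 500 UMIs and 250 genes, no more than 20% of UMIs from mitochondrial genes, and counts that differed from the pool of barcodes of 100 UMIs or fewer at a false discovery rate of 0.01. Scrublet removed 443 and 814 doublets. Clusters without histone genes (scanpy 1.11.5, Leiden resolution 1, 2000 variable genes, 30 components) took class names from fixed markers, at least 3 of them. For tumour an Xist limit of 20 CPM was also used.

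UMIs were summed per class, library and cycling state and given as CPM. Ratios carry 95% exact intervals, shares Clopper-Pearson intervals. No test was made with 1 library per group. Counts of genes past 2-fold (cycling) or 1.5-fold (libraries) used at least 20 UMIs. The ratio and the 2-fold call were tested on simulated Poisson counts. These held no variation between cells or libraries, so that test covers counting error only. Alternatives were other cycling calls, depth, thinning, cell weights, free RNA, doublets, UMI minimums, clusters at equal weight and leaving out the top gene or cell.

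The members, lists and thresholds were chosen with earlier results of these data known. The genes named are the 12 with the most UMIs, the 3 highest and 3 lowest ratios with at least 50 UMIs, and in other lists the 3 with the most UMIs, the highest and the lowest. Of these other lists a selection is printed. Members named outside the rule are Hist1h2ad, Hist1h2bf, Hist1h2bg, Hist1h3d, Hist3h2ba, Hist2h2be and, in classes where they were not at an end, those already named.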

Additional observations from a re-analysis of the deposited data

Results flagged for a closer look

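Over all cells, the summed histone level of knockdown against control lay on opposite sides of 1 in different cell classes. It was 1.01 in tumour cells and 0.857 in macrophages or monocytes, with intervals that exclude 1 on either side. Pooled over depths, the ratio in cycling cells was 0.870 in tumour cells and 0.746 in macrophages, so both lay below 1. In non-cycling cells it was 0.867 and 1.02. Cycling cells made up 36.1% of control and 49.3% of knockdown tumour cells, and the part of that share in the value of 1.01 was not tested. The difference between the classes was not tested, and the all-cell tumour value changed side when each tumour cluster counted equally.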

How the results depend on the processing

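No paired analysis was possible because each group holds 1 library, so leaving out replicates was not possible either. The counting error is small where UMIs are many, and depth limits T cells and NK cells most. In each list the order is tumour control, tumour knockdown, macrophage control, macrophage knockdown, T control and T knockdown unless named. The summed ratio of cycling to non-cycling cells stayed above 3 under all alternatives run. It was 4.72, 4.74, 9.29, 6.997, 11.6 and 7.68 with cycling called at 5 UMIs or more, and 3.36, 3.50, 5.03, 3.48, 5.36 and 3.54 at 1 UMI or more. With 10% of UMIs subtracted as free RNA it was 4.81, 4.99, 9.38, 6.72, 12.4 and 7.04, and the non-cycling levels became 338, 281, 282, 291, 233 and 386 CPM. Without Hist1h2ap it was 3.30, 3.73, 6.22, 5.05 and, for T control, 8.06. As a mean over single cells it was 3.86, 3.53, 7.05, 4.75 and, for T knockdown, 4.79. Thinned to 2000 UMIs it was 3.89 and 3.24 in tumour cells, 7.76 in control macrophages and 10.5 in control T cells. With doublets kept it was 6.73 and 4.92 in macrophages and 6.94 in control T cells. Knockdown T cells of at least 2000 UMIs gave 6.68. Cells with 0 UMIs of the S and mitosis lists too held 364 CPM in knockdown tumour cells and 283 CPM in control macrophages.

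The ratio of knockdown to control in cycling cells was, for tumour cells, macrophages and T cells, 0.789, 0.675 and 0.700 thinned, and 0.982, 0.833 and 1.04 without Hist1h2ap. As a mean over single cells it was 0.857 in tumour cells and 0.746 in T cells, and in macrophages called at 5 UMIs 0.769. In cells of 10000 to 20000 UMIs it was 1.02 in tumour cells, turning the direction, and 0.723 in macrophages, and the cause was not tested. Over all cells it was 1.04, 0.905 and 1.09 thinned, 1.11, 0.922 and 1.04 without Hist1h2ap, and as a mean over single cells 1.04 in tumour cells and 0.895 in macrophages. In the same band of depth it was 1.48 in tumour cells and 0.999 in macrophages. When each tumour cluster counted equally it was 0.803 in cycling and 0.867 in all tumour cells, the latter turning the direction, and the cause was not tested. Counting the shallow low-Xist cluster as tumour, an alternative chosen after seeing the data, gave 1.004 over all cells and 3.76 for cycling to non-cycling knockdown cells.

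With at least 100 UMIs, the members at least 2-fold higher in cycling cells numbered 34 and 19 in macrophages and 4 and 6 in T cells; with 1 UMI in each group they numbered 37 and 48 in T cells. Between libraries, 100 UMIs left 5 lower in cycling and 5 in all macrophages, 0 higher and 1 lower in cycling T cells and 0 higher and 2 lower in all T cells. With 1 UMI in each group, 1 was higher and 8 lower in cycling tumour cells, 5 lower in all tumour cells, 1 higher in cycling macrophages, 14 higher and 15 lower in cycling T cells and 10 higher and 16 lower in all T cells. For single members, subtracting 10% free RNA raised the ratio of cycling to non-cycling control cells by over 1.5 times for Hist1h2ae (40.6 in tumour cells, 126 in macrophages, 114 in T cells), Hist1h2ab (57.0 in tumour cells, 162 in macrophages), Hist2h2ac (18.2 in tumour cells), Hist1h3c (85.5) and Hist1h2bj (23.2) in macrophages, beside Hist1h2ap as given above. The mean over single cells lowered Hist1h1b in T cells to 26.9, and turned Hist1h2ae between libraries in T cells to 0.867 and Hist1h4d in tumour cells to 0.975. Not run for fewer than 20 cells were the depth band in T cells and the stricter non-cycling level in control tumour and T cells.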

Other observations

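In the epidermal cells the summed histone level was 1999 CPM in 65 cycling and 309 CPM in 145 non-cycling control cells, and 1318 and 261 CPM in 19 and 73 knockdown cells. Dendritic cells had 2375 CPM in 17 cycling and 287 CPM in 205 non-cycling control cells, and 1656 and 364 CPM in knockdown. Fibroblasts had 1306 CPM in 10 cycling and 288 CPM in 163 non-cycling control cells, and 902 and 318 CPM in knockdown. Hist1h2bc made up much of the histone UMIs of fibroblasts, where it stood at 179 of a summed 445 CPM over all control cells, against 97.6 of 947 CPM in tumour cells. No test was made of these differences, which rest on few cells.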
